A study of Mus musculus with 7 samples.

Results

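The genes described here are 32 components of the DNA replication machinery and of the switch into S phase. They were chosen by function and matched by gene symbol to the expression table. All 32 were found among its 22680 rows, and all 32 reached the minimum of a mean of 1 FPKM over the LSK libraries, as did 10608 genes in all. FPKM is the number of sequenced fragments relative to gene length and library size, so it allows levels of different genes to be compared. RNA came from cells sorted from C57BL/6 fetal livers at 13.5 days post coitum. LSK cells were profiled in 3 wild-type and 3 Uhrf1-/- libraries and LK cells in 1 wild-type library, and the sources used here name no other allele or treatment. The LSK gate takes cells that lack lineage markers and display both c-Kit and Sca-1, among them the blood stem cells. The LK gate takes c-Kit cells that lack Sca-1, which are more committed progenitors. The sources used here do not give the part of Uhrf1 that was deleted, how the deletion was driven, or which fetuses went into each library, although the study's design text speaks of 3 independent experiments. The spread behind each p-value is that between these libraries and may be partly technical.

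DNA replication starts at origins. ORC, CDC6 and CDT1 load the MCM2-7 helicase there in G1, and CDC45, GINS and MCM10 turn it on in S phase. Primase and the polymerases then copy the strands, held by the PCNA clamp that replication factor C loads. FEN1 and LIG1 join the lagging strand fragments, and CAF-1 places new histones behind the fork. Ribonucleotide reductase and thymidylate synthase supply the nucleotides. Cyclin E and the transcription factor E2F1 control entry into S phase, and E2F sites are a known feature of the promoters of many of these genes. UHRF1 acts at the same forks, where it recognises hemimethylated DNA and helps to recruit DNMT1. Fetal liver stem cells are known for dividing more than their adult counterparts.

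Promoter sequence was a feature that the choice of these genes did not use. Promoter windows of 300 bases, 250 before and 50 after the annotated start, were taken from RefSeq (build GRCm38.p6) and matched 26 of the 32 genes. The E2F-type motifs searched on both strands were TTTCCCGC, TTTGGCGC, TTTCGCGC and TTTGCCGC, and matches to them may overlap. A match was present in 11 of the 26 genes (42.3%), in 1 of 24 mitosis genes (4.17%) and in 439 of the 8497 tested genes with a promoter entry (5.17%). The CHR-type motifs TTTGAA and TTCGAA, which are known from promoters of mitotic genes, were present in 23.1% of the replication genes, 75.0% of the mitosis genes and 16.9% of all tested genes. CCAAT, the core of the NF-Y site, was present in 61.5%, 79.2% and 43.7%. These shares describe letters in a window, and no binding was measured. A gene with several annotated starts had several windows, and some starts lie inside the gene coordinates. The windows of 3 genes with a match before the start, chosen to stand for the helicase, origin recognition and helicase loading, are printed here. Each is the 150 bases that end just before an annotated RefSeq start, 5′ to 3′, with E2F-type matches in capitals.
Mcm6 (chr1:128359706-128359855, minus strand): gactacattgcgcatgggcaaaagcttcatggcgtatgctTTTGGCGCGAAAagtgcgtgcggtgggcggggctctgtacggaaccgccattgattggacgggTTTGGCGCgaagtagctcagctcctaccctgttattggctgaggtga
Orc1 (chr4:108579304-108579453, plus strand): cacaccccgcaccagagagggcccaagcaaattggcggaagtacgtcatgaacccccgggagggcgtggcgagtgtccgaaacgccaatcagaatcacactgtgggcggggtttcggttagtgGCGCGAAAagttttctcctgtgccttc
Cdc6 (chr11:98908001-98908150, plus strand): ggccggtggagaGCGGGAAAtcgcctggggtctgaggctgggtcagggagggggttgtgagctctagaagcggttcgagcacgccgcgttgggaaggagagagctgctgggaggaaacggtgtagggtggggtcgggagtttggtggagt
Mcm6 encodes a helicase subunit, Orc1 a subunit of the origin recognition complex and Cdc6 a helicase loader. The Mcm6 window held 3 matches, of which 2 overlap. The Orc1 and Cdc6 windows held 1 match each. Both lie inside the gene coordinates used here, which begin at 108575705 for Orc1 and 98907709 for Cdc6. The starts used for these genes are therefore internal ones. E2f1, Rrm2, Ccne1, Pcna and Fen1 had a promoter entry and no match in it. For E2f1 the 150 bases before the start used were 154569427 to 154569576, inside a minus-strand gene that reaches 154569892. Bases before that outer end of E2f1 were not searched, so the lack of a match does not cover them.

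**Figure D1:**
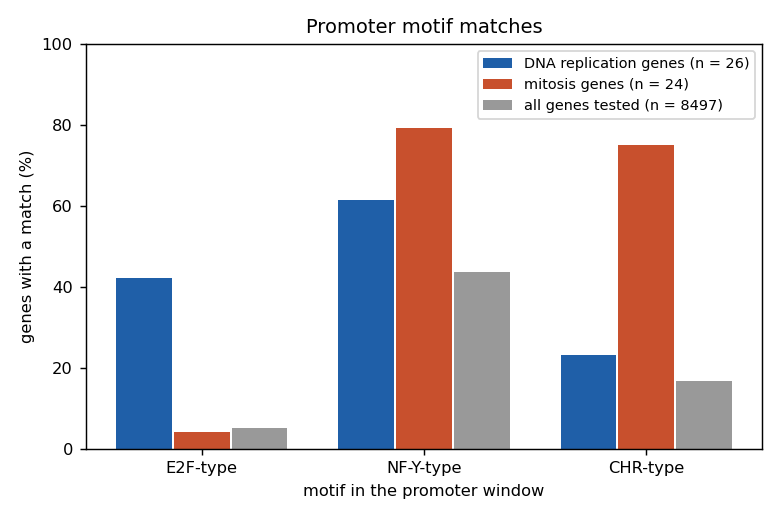
Share of genes (%) whose RefSeq promoter window holds a match to each motif, for 26 DNA replication genes, 24 mitosis genes and 8497 tested genes. The NF-Y-type bars stand for the CCAAT core. Bars have no error because each is a count over 1 set of genes. The E2F-type share is 42.3% in the replication genes against 4.17% and 5.17% in the other sets, and the CHR-type share is highest, at 75.0%, in the mitosis genes.

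The libraries differed in ways that bear on the values that follow. Estimated read totals lay between 16808772 and 25804377. Sca-1, encoded by Ly6a, stood at 26.4 to 96.4 FPKM in the LSK libraries and at 0.321 FPKM in the LK library, and Kit at 24.4 to 56.6 FPKM in all 7. Uhrf1 was measured at 63.0, 66.8 and 113 FPKM (wild type) against 10.2, 8.78 and 18.6 FPKM (Uhrf1-/-), lower in every Uhrf1-/- library. Wild-type replicate 2 stood apart, with 4.75% of its count values in ribosomal protein genes against 10.6% to 15.7% in the other libraries. Replicate 3 stood apart in both genotypes: 6 immediate-early genes summed to 66.3 and 143 FPKM there and to 1033 to 1198 FPKM in replicates 1 and 2. The 6 macrophage markers in the table summed to 149, 72.6 and 1.12 FPKM in wild-type and to 35.9, 37.8 and 2.51 FPKM in Uhrf1-/- replicates 1, 2 and 3. Other markers separated the genotypes. The Uhrf1-/- values lay above the wild-type values for 4 of 5 megakaryocyte markers, whose 5 genes summed to 43.9 to 108 FPKM (wild type) and 131 to 184 FPKM (Uhrf1-/-), with Itga2b at 4.58 to 5.52 and 17.3 to 22.9 FPKM. They also lay above for Slamf1, a stem cell surface marker (0.547 to 1.17 and 3.55 to 5.18 FPKM), 2 of 6 erythroid markers (Epor and Klf1) and 1 of 4 myeloid markers (Ctsg). They lay below for Flt3, a receptor of multipotent and lymphoid-primed progenitors (49.8 to 102 and 10.6 to 29.1 FPKM), Kit, Cd34 and the lymphoid marker Il7r. The part of all these differences in the results was not tested. In bulk RNA, fewer cells in S phase and less RNA per cell cannot be told apart.

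In LSK cells the replication genes spanned about the same levels in both genotypes. Pcna had the highest mean, with 301, 252 and 255 FPKM (wild type) against 299, 361 and 224 FPKM (Uhrf1-/-). The next were Rfc2, a clamp loader subunit, Mcm7 and Gins2. Rfc2 stood at 240.2, 245 and 204 FPKM (wild type) against 259, 309.6 and 190.01 FPKM (Uhrf1-/-). Mcm7 stood at 198, 236 and 209 and at 233, 225 and 259 FPKM. The ranges of Rfc2, Mcm7 and Gins2 overlapped, so their order is not set by these data. At the other end Orc1 stood at 2.08, 6.32 and 3.68 and 3.13, 4.13 and 2.65 FPKM, and Ccne2, a cyclin E gene, at 0.926, 3.48 and 1.46 and 0.750, 0.796 and 1.32 FPKM. Ccne2 and Orc1 had the fewest reads, with 85 and 123 estimated reads in their shallowest library, while the other 30 genes had over 300 in every library. Between the lowest and the highest LSK library, the level of a replication gene differed 1.31-fold (Mcm7) to 4.63-fold (Ccne2). The median was 1.79-fold, against 2.22-fold over all tested genes, which reach down to a mean of 1 FPKM and were not matched for level.

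**Figure D2:**
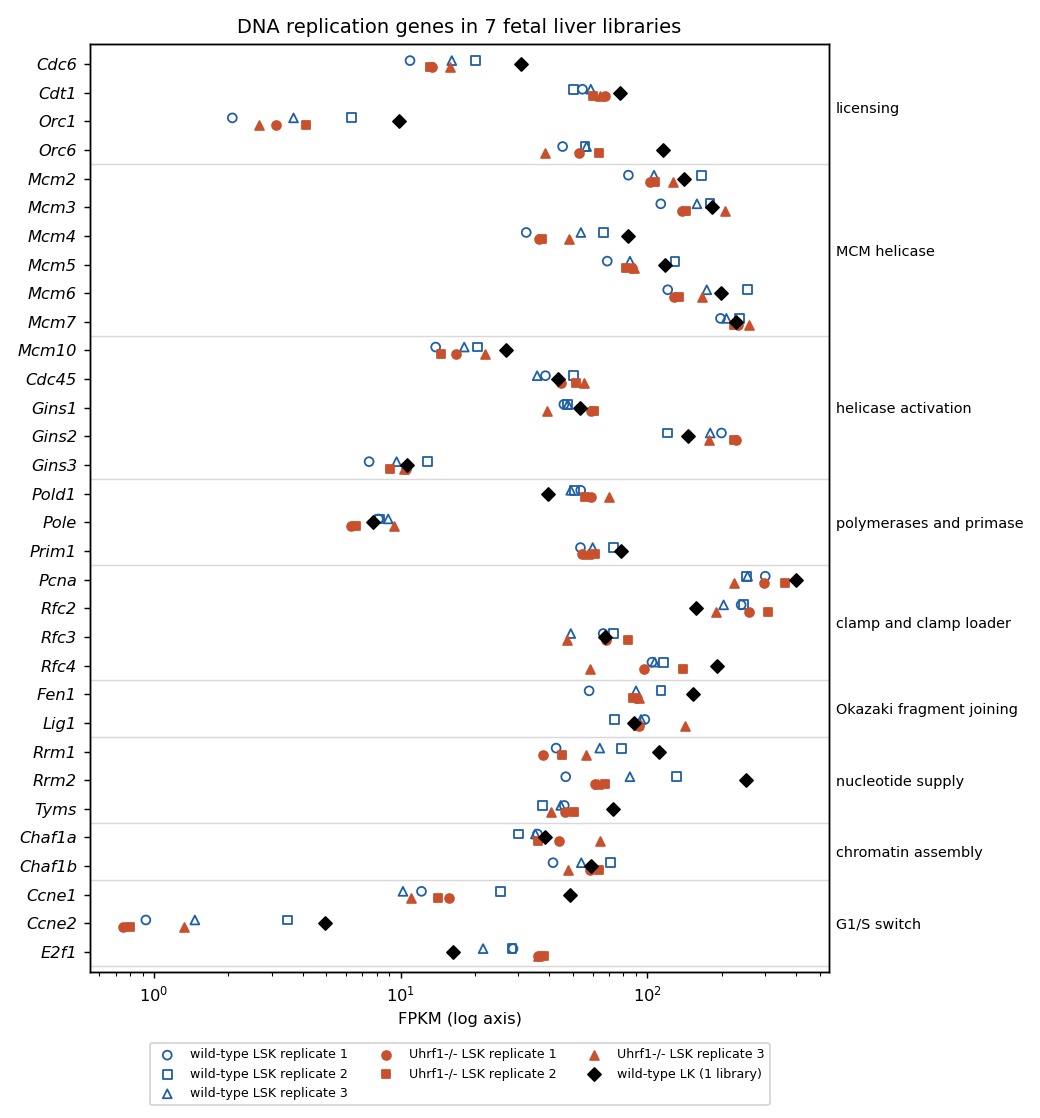
Level of each of the 32 genes in each library, in FPKM on a log axis, grouped by role. Open blue symbols are wild-type LSK, filled orange symbols Uhrf1-/- LSK (circle, square and triangle for replicates 1, 2 and 3) and black diamonds the LK library. Pcna has the highest mean LSK level and Ccne2 the lowest, and the open squares of wild-type replicate 2 lead the LSK libraries for 14 genes.

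The genotypes were compared to ask how LSK transcripts differ when Uhrf1 is lost. None of the 32 replication genes passed the test, in either direction. With limma over all tested genes, 0 of 32 had an adjusted p under 0.05, where 18 of 10608 genes (0.170%) did (0.113% as higher and 0.0566% as lower), and 0 of 32 had an unadjusted p under 0.05, where 5.57% of all genes did. With the replicate number as a block the counts were 0 of 32 against 2.06% of all genes for the adjusted p, and 0 of 32 against 12.0% for the unadjusted p. Adjusted p-values of the 32 genes ran from 0.942 to 0.997, and blocked ones from 0.419 to 0.989. The log2 fold changes were positive for 18 genes and negative for 14, with a median of 0.04 (all tested genes, -0.03) and a median size of 0.15 (all tested genes, 0.23).

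A p-value above the threshold does not show that levels were equal, so the intervals matter here. All 32 of the 95% intervals covered 0. They lay within -1 to 1 on the log2(FPKM + 1) scale for 25 genes, and for 30 genes with the block. These limits are a halving and a doubling of FPKM + 1. In genes with low levels, such as Orc1, they allow larger changes of FPKM itself. The lowest bound was -1.23, for Ccne2, and the highest 1.08, for Chaf1a. Changes smaller than about 0.66 on this scale, the median distance from estimate to bound, lie inside an interval of typical width with 3 libraries per genotype. Of the 32 genes, 30 had over 300 estimated reads in every library.

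**Figure D3:**
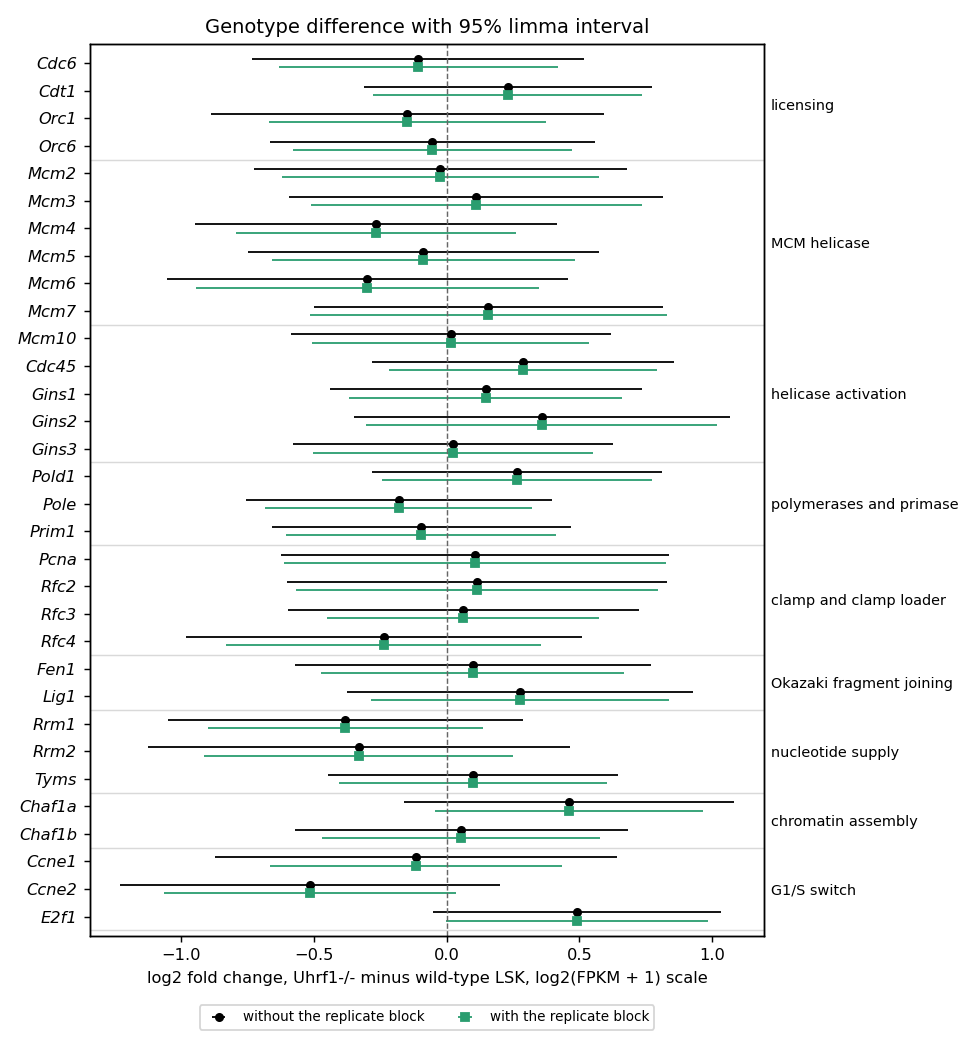
Log2 fold change of each gene, Uhrf1-/- minus wild-type LSK on the log2(FPKM + 1) scale, with its 95% limma interval, without (black circles) and with (green squares) the replicate block. All intervals cross the dashed line at 0. E2f1 and Chaf1a lie farthest to the right, at 0.49 and 0.46, and Ccne2 farthest to the left, at -0.51.

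Among the genes of the switch into S phase, E2f1 (Entrez gene 13555; chromosome 2, 154559400 to 154569892 of GRCm38), a transcription factor that drives replication genes, had the largest positive difference. It stood at 28.5, 28.3 and 21.6 FPKM (wild type, replicates 1 to 3 in order), 36.2, 38.2 and 36.1 FPKM (Uhrf1-/-, in the same order) and 16.4 FPKM (LK). All 3 Uhrf1-/- values were above all 3 wild-type values, and the LK value was below every LSK value. The means were 26.1 ± 3.94 and 36.8 ± 1.17 FPKM (SD, n = 3 each), with a log2 fold change of 0.49 (95% interval -0.05 to 1.03), which did not pass (limma adjusted p = 0.942, 0.419 with the block). Ccne2 (Entrez gene 12448; chromosome 4, 11190433 to 11204779) had the largest negative difference. Its Uhrf1-/- values of 0.750, 0.796 and 1.32 FPKM overlapped the wild-type values of 0.926, 3.48 and 1.46 FPKM, although each was below the wild-type library of the same number. Its log2 fold change of -0.51 (95% interval -1.23 to 0.20) did not pass (limma adjusted p = 0.942, 0.455 with the block). It was -0.17 without wild-type replicate 2, -0.78 without wild-type replicate 1, -0.11 in the blocked fit without pair 2 and -0.80 with a pseudocount of 0.1. Ccne1, which encodes the other cyclin E, stood at 12.1, 25.4 and 10.2 FPKM (wild type) against 15.8, 14.2 and 10.99 FPKM (Uhrf1-/-). Its wild-type libraries spread more widely than the Uhrf1-/- libraries, which all fell inside the wild-type range.

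The nucleotide supply genes Rrm1 and Rrm2 encode the large and small subunits of ribonucleotide reductase. Rrm1 (Entrez gene 20133; chromosome 7, 102441695 to 102469771) stood at 42.7, 78.7 and 64.2 FPKM (wild type) against 37.7, 45.1 and 56.7 FPKM (Uhrf1-/-), lower in 3 of 3 pairs, with a log2 fold change of -0.38 (95% interval -1.05 to 0.29, limma adjusted p = 0.942). That of Rrm1 was -0.19 without wild-type replicate 2 and -0.62 without wild-type replicate 1. Rrm2 (Entrez gene 20135; chromosome 12, 24708254 to 24714146) stood at 46.7, 132 and 85.0 FPKM (wild type) against 61.2, 67.6 and 63.3 FPKM (Uhrf1-/-). The Uhrf1-/- values of Rrm2 were close together and inside the wild-type range, whose upper end was wild-type replicate 2. Its log2 fold change was -0.33 (95% interval -1.13 to 0.46) and became 0.02 without that library and -0.72 without wild-type replicate 1. Tyms, thymidylate synthase, had means of 42.8 ± 4.48 and 45.9 ± 5.08 FPKM (SD, n = 3 each).

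The helicase genes Mcm2 to Mcm7 encode the 6 subunits of 1 ring. Their FPKM values summed to 617.5, 1033 and 788 in the wild-type libraries and to 725, 731 and 896 in the Uhrf1-/- libraries. The wild-type sums enclosed the Uhrf1-/- sums. Mcm4 was the lowest of the 6 in each LSK library. Mcm6 (Entrez gene 17219; chromosome 1, 128331575 to 128359705) had the largest difference of the 6. It stood at 121, 256 and 174 FPKM (wild type) against 128, 135 and 167 FPKM (Uhrf1-/-), with a log2 fold change of -0.30 (95% interval -1.05 to 0.46, limma adjusted p = 0.943). The groups overlapped, and the value was -0.03 without wild-type replicate 2, -0.56 without wild-type replicate 1 and 0.01 in the blocked fit without pair 2. The other 5 ranged from -0.27 for Mcm4 to 0.16 for Mcm7.

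All 5 helicase activation genes had positive log2 fold changes, from 0.02 for Mcm10 to 0.36 for Gins2, and 0 passed. Gins2 (Entrez gene 272551; chromosome 8, 120581266 to 120589075), a subunit of the GINS complex, stood at 199.9, 121 and 179.9 FPKM (wild type) against 229, 225 and 178 FPKM (Uhrf1-/-). The lowest value was wild-type replicate 2, and the groups overlapped (95% interval -0.35 to 1.07). The log2 fold change of Gins2 was 0.14 without that library and 0.18 on the count values. Cdc45 (Entrez gene 12544; chromosome 16, 18780447 to 18811972), the partner of GINS at the helicase, stood at 38.6, 50.4 and 35.8 FPKM and at 44.8, 51.6 and 55.6 FPKM. It was higher in 3 of 3 pairs, with overlapping groups and a log2 fold change of 0.29 (95% interval -0.28 to 0.86), which was 0.19 without wild-type replicate 3 and 0.14 on the count values. Gins1 had means of 47.0 ± 0.942 and 53.1 ± 11.9 FPKM and Gins3 of 9.97 ± 2.71 and 9.95 ± 0.814 FPKM (SD, n = 3 each), so the 3 GINS genes here differed more from each other in level than between genotypes.

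Chaf1a and Chaf1b, the genes on this list that encode subunits of the histone chaperone CAF-1, had positive log2 fold changes. Chaf1a (Entrez gene 27221; chromosome 17, 56040416 to 56068026) stood at 35.9, 30.2 and 35.2 FPKM (wild type) against 43.8, 35.9 and 64.5 FPKM (Uhrf1-/-). The groups did not overlap, but Uhrf1-/- replicate 2 and wild-type replicate 1 were almost equal and replicate 3 carried most of the difference. The log2 fold change was 0.46 (95% interval -0.16 to 1.08, limma adjusted p = 0.942, 0.472 with the block) and became 0.23 without Uhrf1-/- replicate 3 and 0.30 on the count values. Chaf1b had means of 55.4 ± 14.7 and 56.6 ± 8.31 FPKM (SD, n = 3 each). Besides E2f1 and Chaf1a, the licensing factor gene Cdt1 (54.6 ± 4.44 and 64.1 ± 3.57 FPKM) and the polymerase delta catalytic subunit gene Pold1 (51.1 ± 2.42 and 61.9 ± 7.39 FPKM) had all Uhrf1-/- values above all wild-type values. These 4 genes of 32 compare with 4.61% of all tested genes. None of the 32 had all Uhrf1-/- values below the wild-type values, against 6.16% of all tested genes.

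The remaining fork genes had smaller or less even differences. Among the licensing genes, Orc1 had a log2 fold change of -0.15, Cdc6 of -0.11 and Orc6 of -0.05. Pole, the polymerase epsilon catalytic subunit gene, and Prim1, the primase catalytic subunit gene, had values of -0.18 and -0.10. Fen1, a flap nuclease, and Lig1, a DNA ligase, had values of 0.10 and 0.28, and Pcna had 0.11. Of the clamp loader genes, Rfc4 stood at 104, 116 and 107 FPKM (wild type) against 96.6, 139 and 58.6 FPKM (Uhrf1-/-), so the Uhrf1-/- libraries spread widely on both sides of the wild-type ones. Rfc3 stood at 66.3, 72.7 and 49.0 FPKM and at 67.9, 83.4 and 47.5 FPKM, lowest in replicate 3 of each genotype.

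The direction of the genotype difference changed with the replicate number, when libraries of the same number were read as a pair. That reading was inferred from the same data, and is less clear for pairs 1 and 2 than for pair 3. The median over the 32 genes was 0.22 in pair 1, -0.20 in pair 2 and -0.02 in pair 3, where all tested genes had medians of -0.01, -0.05 and -0.05. In pair 1, 26 of the 32 genes were higher in the Uhrf1-/- library, against 48.6% of all tested genes. In pair 2 the count was 14 of 32 (46.8%) and in pair 3 it was 15 of 32 (45.3%), with the share of all tested genes in parentheses. Of the 32 genes, 5 were higher in all 3 pairs (E2f1, Cdt1, Chaf1a, Pold1 and Cdc45) and 2 were lower in all 3 (Ccne2 and Rrm1), against 13.9% and 18.3% of all tested genes. The median over the 32 genes was -0.14 without wild-type replicate 1 and 0.16 without wild-type replicate 2, and 0 of 32 passed in either limma fit.

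**Figure D4:**
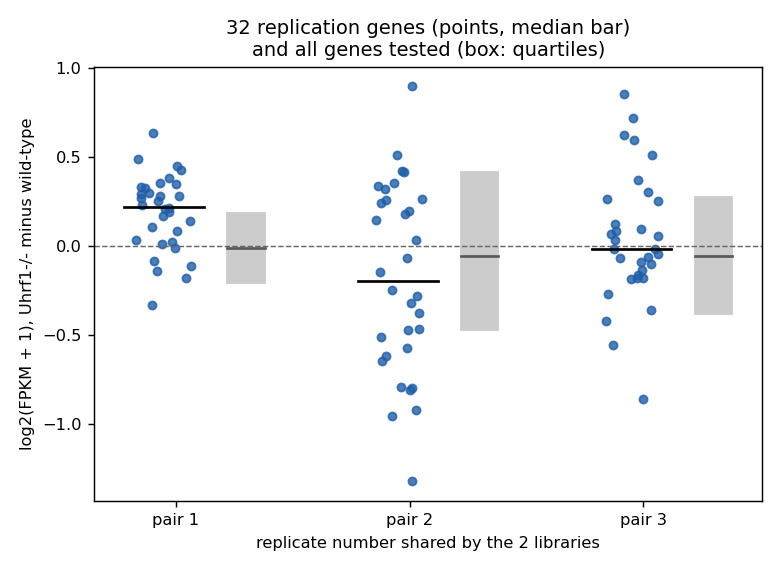
Difference of each of the 32 genes within each pair of libraries with the same replicate number, on the log2(FPKM + 1) scale. Points are genes, black bars their medians (0.22, -0.20 and -0.02), and grey boxes the quartiles of the 10608 tested genes with their median line. Most points lie above 0 in pair 1 and spread on both sides of 0 in pairs 2 and 3.

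The highest and lowest LSK values were spread unevenly over the libraries. Wild-type replicate 2 was the highest of the 6 LSK libraries for 14 of the 32 genes (all tested genes, 32.3%) and the lowest for 5 (23.9%). Wild-type replicate 1 was the lowest for 14 genes (15.4%) and the highest for 0 (15.0%), and wild-type replicate 3 was the lowest for 4 (16.5%) and the highest for 0 (16.6%). Among the Uhrf1-/- libraries, replicate 1 was the highest for 2 genes (7.97%) and the lowest for 3 (10.7%), replicate 2 the highest for 8 (10.2%) and the lowest for 0 (8.96%), and replicate 3 the highest for 8 (18.0%) and the lowest for 6 (24.5%). In wild-type replicate 2, 6 genes were at least 1.5-fold above both other wild-type libraries: Mcm2, Mcm5, Ccne1, Ccne2, Rrm2 and Orc1. This compares with 11.2% of all tested genes. None of the 32 was at least 1.5-fold below both, against 10.3%. After median-of-ratios scaling between libraries, 3 genes were higher and 1 was lower by this rule, and on the count values 9 were higher and 0 lower. The genes with low values in that library were Gins2, Lig1, Tyms, Chaf1a and Cdt1, each the lowest of the 6 LSK libraries, so the list did not move as a block. These comparisons were chosen after the values were seen.

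Replicate 3 stood apart in immediate-early genes, and the replication genes were set against the same split. None of the 32 differed at least 1.5-fold from replicates 1 and 2 in the same direction in both genotypes, where 3.18% of all tested genes were higher and 4.52% lower. The 4 genes with the largest mean difference of replicate 3, all lower there, were Rfc3, Ccne1, Rfc4 and Rfc2. For Rfc4 that difference was -0.04 in wild-type and -0.97 in Uhrf1-/- cells, and for Rfc2 it was -0.25 and -0.57 on the log2(FPKM + 1) scale.

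The single LK library allowed a description of how the replication genes compare between LSK cells and more committed progenitors, with no replicate check. More of the 32 genes were higher than lower in LK cells: 18 lay above the range of the 3 wild-type LSK libraries (all tested genes, 32.5%), 4 lay below it (31.1%) and 10 inside it. Beyond 1.5-fold from the wild-type LSK mean as well, 12 were higher (37.5%) and 1 was lower (3.13%), where all tested genes gave 21.0% and 22.0%. The median difference was 0.32 on the log2(FPKM + 1) scale (all tested genes, 0.05). Wild-type LSK replicate 2 differed from wild-type replicates 1 and 3 by a similar median, 0.36 (all tested genes, 0.08). All 4 licensing genes and all 3 nucleotide supply genes were above the wild-type LSK range. Of the 6 helicase subunit genes, Mcm3 and Mcm4 were.

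The largest LK differences were in the cyclin E, reductase and origin recognition genes. Ccne1 (Entrez gene 12447; chromosome 7, 38097984 to 38107490) stood at 12.1, 25.4 and 10.2 FPKM in LSK cells of the wild type and at 48.7 FPKM in LK cells, 3.06 times the LSK mean. Rrm2 stood at 46.7, 132 and 85.0 FPKM and at 251 FPKM, 2.86 times the mean. Orc1 (Entrez gene 18392; chromosome 4, 108575705 to 108616030) stood at 2.08, 6.32 and 3.68 FPKM and at 9.82 FPKM, and Orc6 (Entrez gene 56452; chromosome 8, 85299632 to 85308279) at 45.4, 55.9 and 56.7 FPKM and at 116 FPKM. In each of these 4 genes the LK value was above every LSK library of either genotype. Of the 32 genes, 15 were above all 6 LSK libraries (all tested genes, 28.2%) and 3 below all 6 (25.7%). The other genes past 1.5-fold were Ccne2, Cdc6, Rrm1, Tyms, Mcm4, Mcm10, Rfc4 and Fen1, with log2 differences from 0.60 (Mcm10) to 1.09 (Ccne2).

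The 4 genes below the LSK range in LK cells were E2f1, Rfc2, Pold1 and Pole. Rfc2 stood at 158 FPKM in LK cells against 240.2, 245 and 204 FPKM in wild-type LSK cells, and Pold1 at 39.6 FPKM against 53.7, 50.6 and 48.9 FPKM. E2f1, at -0.63 on the log2 scale, was the 1 gene lower by at least 1.5-fold, and it fell short of that limit when wild-type replicate 1 or 2 was left out. In all 12 genes that were at least 1.5-fold higher in LK cells, the Uhrf1-/- mean lay closer to the wild-type LSK mean than to the LK value. These 12 were picked for a large distance between LK and wild-type LSK cells, which favours that outcome. The same count is not given for the remaining genes of the list or for all tested genes. For E2f1 the Uhrf1-/- libraries lay on the opposite side of the wild-type libraries from LK.

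**Figure D5:**
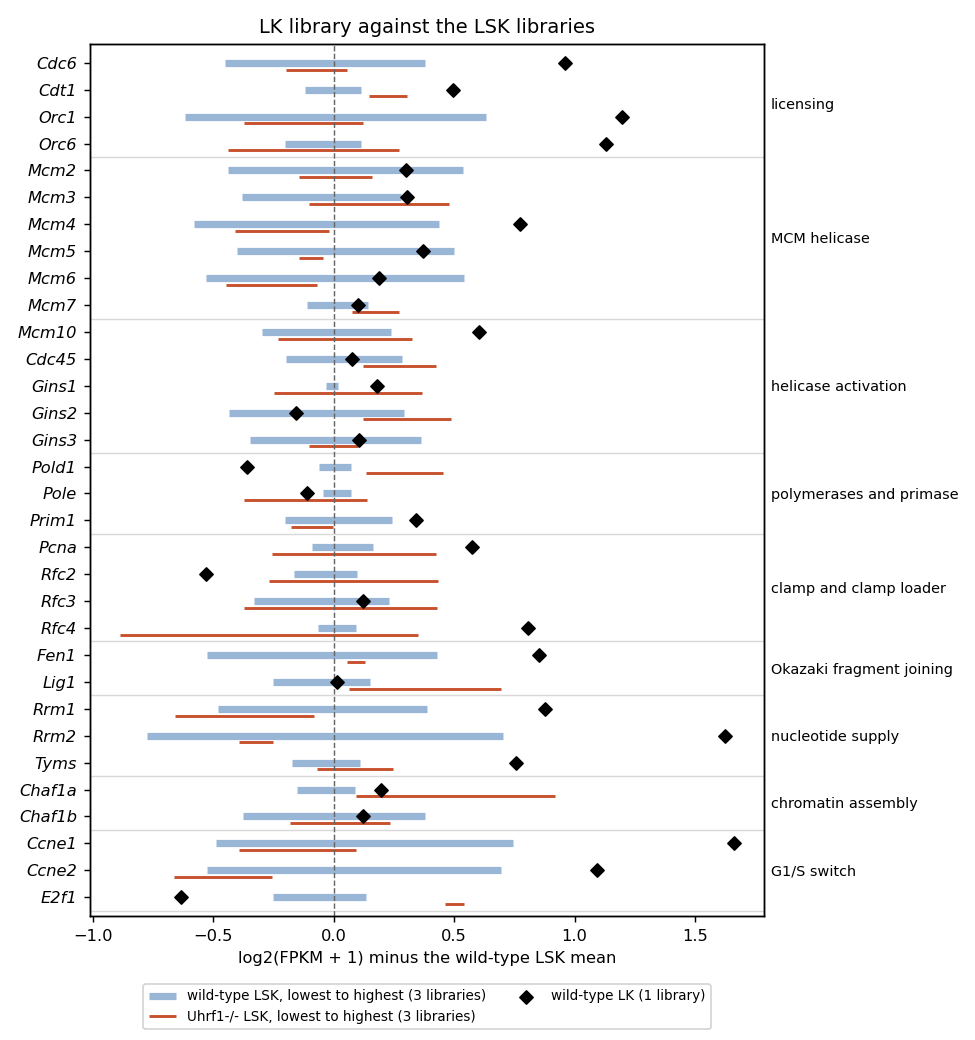
Level of each gene in the LK library (black diamonds, 1 library) as log2(FPKM + 1) minus the mean of the 3 wild-type LSK libraries, with the lowest-to-highest range of the wild-type LSK (blue bars) and Uhrf1-/- LSK (orange lines) libraries. Ccne1 and Rrm2 lie farthest to the right, at 1.66 and 1.63, and E2f1 farthest to the left, at -0.63.

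On the deposited count values scaled to equal totals, 6 of the 32 genes were higher and 2 lower in LK cells by the same rule, in place of 12 and 1 (all tested genes, 11.8% and 30.2%), and 11 lay above and 5 below the range. That scale moved the median of all tested genes from 0.05 to -0.19. Relative to the median of all genes, the replication genes were higher by 0.28 with FPKM and by 0.35 with the count values. Wild-type LSK replicate 2, set against the other wild-type LSK libraries, gave 0.28 and 0.37 by the same measure. On the count values the median of the replication genes was 0.16 for LK and 0.67 for that library. The LK excess was thus no larger than the difference of 1 LSK library from others of its group. Ccne1, Rrm2, Orc1, Orc6 and E2f1, which had large differences, kept their direction on both scales, at 1.51, 1.26, 1.04, 0.72 and -0.71 with the count values. Genes with small positive differences did not all keep theirs. Mcm6, Mcm7, Cdc45, Gins1, Gins3, Rfc3, Chaf1b and Lig1 were positive with FPKM and negative with the count values. Mcm6, for example, went from 0.19 to -0.07 and Cdc45 from 0.07 to -0.16. The erythroid markers in the table summed to 1289.8 FPKM in the LK library against 16.0 to 135 FPKM in wild-type LSK cells, and the myeloid markers to 2926 FPKM against 968 to 1490.4 FPKM. Their part in the LK differences was not tested.

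Of 72 other replication and S phase genes, 71 were tested (Rb1 was below the minimum). Uhrf1, which was on that list, passed as lower with and without the block, and 0 of the other 70 passed in either limma fit. Without the block 0 of these 70 had an unadjusted p under 0.05 (all tested genes, 5.57%), and with it 5 did (all tested genes, 12.0%), all short of the adjusted threshold: Clspn, Donson, Orc3, Orc4 and Orc5. Their adjusted p-values with the block lay between 0.289 and 0.406. Orc5, an origin recognition subunit, stood at 4.76, 19.8 and 4.53 FPKM (wild type) against 6.41, 8.37 and 1.62 FPKM (Uhrf1-/-), so wild-type replicate 2 was again the high library. Donson, a replication fork factor, had means of 7.69 ± 4.19 and 4.64 ± 2.32 FPKM (SD, n = 3 each). Clspn, a checkpoint adaptor at the fork, stood at 9.18, 4.34 and 14.3 and 10.5, 9.14 and 22.5 FPKM, higher in 3 of 3 pairs and lowest in wild-type replicate 2. Besides Uhrf1, Tfdp1, the E2F dimer partner, had the most negative log2 fold change, -0.65, with values from 19.9 to 152 FPKM within wild-type cells. The most positive were Rnaseh2c, a ribonuclease H2 subunit gene (0.62), Clspn (0.57) and Ung, a uracil glycosylase gene (0.50). Dnmt1, the methyltransferase that UHRF1 brings to the fork, stood at 56.9, 35.5 and 79.4 FPKM (wild type) against 64.2, 57.9 and 117 FPKM (Uhrf1-/-) (log2 fold change 0.47, limma adjusted p = 0.942).

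In LK cells, 28 of the 71 other pathway genes were above the wild-type LSK range and at least 1.5-fold higher (39.4%, against 21.0% of all tested genes), and 2 were lower (2.82% against 22.0%). Orc2, Orc3, Orc4 and Orc5 were all among the 28, with Orc2 at 9.99, 12.4 and 13.5 FPKM in wild-type LSK cells and 37.0 FPKM in LK cells. Pola1, the catalytic subunit gene of polymerase alpha, stood at 4.58, 3.67 and 7.89 and 14.7 FPKM, and the S phase cyclin gene Ccna2 at 44.5, 77.6 and 54.2 and 112 FPKM. Of 28 mitosis genes, 3 were higher by this rule (10.7%) and 0 lower, both below the shares of all tested genes. For mitosis genes the median genotype difference was -0.18 (all tested genes, -0.03). Their medians were 0.09, -0.46 and -0.22 in pairs 1, 2 and 3, so the direction was not the same in every pair. Wild-type replicate 2 was the highest LSK library for 17 of the 28 (all tested genes, 32.3%). None of the 28 passed in either limma fit. Without the block 1 (Kif23) had an unadjusted p under 0.05 and with it 2 did (Kif23 and Nusap1), where all tested genes gave 5.57% and 12.0%.

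Over the 7 libraries, the genes outside the list whose log2 levels were most like the mean standardised level of the 32 genes were Chtop, Cep63, Sord, Mesdc2 and Hnrnpll (Pearson r from 0.968 to 0.994, n = 7 libraries, a description over libraries that share the LK and wild-type replicate 2 differences). Within the list the same r ran from -0.61 for Gins2 to 0.97 for Fen1, and 7 of the 32 genes had a negative value: Gins2, Pold1, Rfc2, E2f1, Lig1, Pole and Chaf1a. For 12 of the 32 genes an exon shares bases with another gene in the GENCODE M21 annotation of GRCm38. They include Gins2 with Gse1, Chaf1a with Ubxn6, Rfc2 with Lat2 and Fen1 with Gm10143. No source used here states the strand setting of the counting, so reads in those shared bases cannot be assigned.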

How the data were processed

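RNA of 7 libraries was sequenced by the submitters, and the deposited table gives 2 values per gene and library. The first is FPKM, as deposited by the authors. The second is named a count in the deposited file, but its values are not whole. They were treated as a scaled count signal, as deposited, of which 98.2% to 98.8% of low values lay within 0.02 steps of whole multiples of a step found for each library, so a count model was not run. Dividing totals by the step gave the estimated reads. TopHat2 2.0.9, Cufflinks 2.1.1 and mm10 appear in the processing notes of the submitters with no role attached, per the submitters' processing notes. The sources used here give no annotation, strand or counting options. Coordinates are those of RefSeq on GRCm38.p6, matched by Entrez gene ID.

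The genotype test was limma (3.58.1, R 4.3.3), two-sided, with trend and robust moderation, fitted to log2(FPKM + 1) of the 6 LSK libraries. Benjamini-Hochberg adjustment ran over the 10608 genes that reached a mean of 1 FPKM. The fit was tested on simulated data with independent noise of capped size and no effect shared by replicate number. That test does not cover noisier genes or libraries that vary together. On this scale the change of low genes is understated. Labels do not say what a replicate number shares. The deviation of a library from its group mean had a correlation with that of its same-numbered partner of 0.35, 0.33 and 0.65 (other numbers, -0.59 to 0.21). All 3 were above the limit of 0.1, so numbers were read as pairs and a fit with the replicate block is given beside the main one. Swapping numbers 1 and 2 also gave values above that limit, 0.21 (wild-type 2) and 0.16 (wild-type 1). The limit therefore does not separate pairs 1 and 2 from swapped ones, although their own values were higher. The blocked p-values and the directions within pairs 1 and 2 rest on this reading, which was inferred from the same data. LK was compared by description: outside the wild-type LSK range and at least 1.5-fold from its mean. Full values are given for genes with the 4 largest differences in each direction by genotype, the 4 largest by LK and by replicate 3, the 4 highest and the 2 lowest. The genes and lists were chosen with earlier results of these data known. Alternatives were another pseudocount (0.1), no filter, 2 other scalings, another moderation, the block, and leaving out libraries or pairs.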

Additional observations from a re-analysis of the deposited data

How the results depend on the processing

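In all settings tried, 0 of the 32 replication genes passed the genotype test in limma. The number with an unadjusted p under 0.05 was 0 to 2. The genes concerned were E2f1, Chaf1a, Ccne2 and Rrm2, each in some settings only. The log2 fold change of E2f1 lay between 0.36 and 0.56 when 1 library was left out. The median over the 32 genes, 0.04 in the main fit, ran from -0.14 to 0.16 over the settings, so its sign was not stable. Each move was smaller than the SD of 0.21 between pairs. That SD comes from the same libraries and exceeds the median itself, so this comparison does not show stability. Over all genes the 18 calls became 219 with the replicate block, 0 with no filter on low values (limma, 967 at an unadjusted p under 0.05), 36 with the count values and 9 without trend and robust moderation. Leaving out 1 library gave 0 to 4, with 0 in limma when wild-type replicate 1 or 2 was left out (1504 and 470 genes at an unadjusted p under 0.05). With the block, there were 667 calls without pair 1, 20 without pair 2 and 196 without pair 3. The block gave 186 with median-of-ratios scaling and 238 with the count values, both added after seeing the data. No call on a replication gene changed with the block. The log2 fold change of Rrm2 reversed to 0.020 without wild-type replicate 2 (lowest and highest value when 1 library was left out -0.72 and 0.02), and that of Mcm6 to 0.012 in the blocked fit without pair 2.

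For LK, a fold limit of 2 left 5 genes higher and 0 lower (8.12% and 12.6% of all genes), and the count values gave 6 and 2 (11.8% of all genes higher and 30.2% lower). Leaving out 1 wild-type library gave 0 to 2 lower, with 0 without replicate 1 or 2 and 2 without replicate 3. For replicate 3, the share of all genes was 7.69% and became 2.31% at a limit of 2 and 5.02% with no filter. Leaving out 1 library gave 8.51% to 12.7%. In wild-type replicate 2, the limit of 2 left 1 gene higher. Median-of-ratios scaling gave 3 higher and 1 lower, and the count values 9 higher and 0 lower. Leaving out a replicate 3 library gave no value for the rule on both genotypes. An edgeR test was planned only for the case that the deposited counts were whole. They were not, so it was not run, and no test was run on the estimated reads. Ccne2 and Orc1 had the fewest reads, so counting error limits them most. Causes of the changes in this section were not tested.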
